A study of Mus musculus with 23 samples.

Results

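The comparison described here is that of CD4+ T cells labelled wild type with and without stimulation through CD3 and CD28, in cultures that held no niacin. It rested on 6 of the 23 libraries of the series, 3 stimulated and 3 unstimulated, chosen by their labels alone, and on 16882 of 53379 gene IDs that passed the filter on low counts. The cells came from the spleens of C57BL/6 mice, were sorted for CD45, CD3 and CD4 and against CD8, and were cultured for 72 h. Every culture received interleukin 2 (IL-2) at 30 IU/ml, so the unstimulated group is a group of cells kept in IL-2, not of fresh cells. The stimulated group received antibodies against CD3 and CD28 besides. The remaining libraries came from cells labelled Gpr109a-/-, a deletion of the niacin receptor gene now named Hcar2, and from cultures of both labels with 5 mM niacin. They entered the estimate of spread and served for side-by-side values.

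A T cell is switched on when its receptor, read out through the CD3 chains, and the costimulatory receptor CD28 are engaged together. Kinases at the receptor then open calcium channels and start the MAP kinase and NF-kappaB pathways, and factors such as NFAT, AP-1 and NF-kappaB, followed by MYC and IRF4, carry the signal to the genes. Within days the small resting cell becomes a growing blast that takes up amino acids and glucose, makes ribosomes, lipids and nucleotides, divides, and changes the receptors by which it moves and listens to cytokines.

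The labelled cell type was checked against markers of 4 kinds of cells. The marker sets of CD8 T cells and of erythroid cells and platelets are not reported here. All 8 markers of the CD4 T cell set were detected. Their summed level was 4092 to 4822 counts per 1000000 (CPM) in the unstimulated and 5198 to 5528 CPM in the stimulated libraries. Most of these markers are shared by T cells at large, so their sum does not tell CD4 from CD8 T cells. The summed levels of the B cell markers (at most 10.6 CPM) and of the myeloid markers (at most 7.05 CPM) were low in every library. Markers of NK and gamma delta T cells summed to 198 to 304 CPM in unstimulated and 173 to 252 CPM in stimulated libraries, and 7 of the 10 tested fell. These sums include Eomes, which rose and is described below with the lineage factors. The genotype label could not be taken at face value: Hcar2 had 1 count in unstimulated library 1 and 0 in the other 5 libraries, whereas the 11 knockout-labelled libraries held 0 to 32 counts. The cells are therefore called wild-type-labelled throughout. Library totals ran from 20636274 to 30090018 counts, and 811 to 856 genes took 50% of the counts in stimulated libraries against 938 to 1011 in unstimulated ones. Unstimulated library 1 stood somewhat apart, with 0.346% of its counts on the mitochondrial genome against 0.937% and 0.802% in libraries 2 and 3. The labels do not give the origin of the replicates, and the p-values rest on library-to-library spread, which may be technical. In bulk RNA, fewer cells of a type and less RNA per cell cannot be told apart, and a level in CPM says nothing of the RNA content of a cell.

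Stimulation changed a large share of the genes tested. Among the 16882 genes, 3946 were higher (23.4%) and 3667 lower (21.7%) in stimulated cells by edgeR's quasi-likelihood test at an adjusted p below 0.05, together 45.1%. The median log2 fold change over all genes was -0.07, a value that the TMM scaling holds near 0. Changes of at least 2-fold numbered 2462 upward (14.6%) and 2349 downward (13.9%), and 717 and 590 genes changed by at least 8-fold. The libraries of the groups did not overlap for 60.9% of genes. Below, a gene is said to rise or fall only if it passed this test. Levels are CPM in libraries 1, 2 and 3 of each group, in that order, and values with ± are log2 fold changes, stimulated over unstimulated, with their standard errors.

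The same stimulation in other libraries gave much the same calls. In cells labelled knockout, 4256 genes rose (25.2%) and 4647 fell (27.5%). They included 3271 of the genes that rose in wild-type-labelled cells, which is 82.9% of that list and 76.9% of the knockout-label list, and 2892 of those that fell (78.9% and 62.2%). Of the risen genes 3 fell there, and 0 of the fallen genes rose. In wild-type-labelled cells with niacin, 4396 rose (26.0%) and 4492 fell (26.6%), with 3412 risen genes in common (86.5% of this list, 77.6% of the other) and 2910 fallen ones (79.4% and 64.8%). These contrasts share no library with the one described here, though they share its estimate of spread. The difference between the genotype labels was itself past the threshold for 1 gene (0.00592%), Nrn1, and 1773 genes had an unadjusted p below 0.05 in that edgeR test. Nrn1 was no longer past it when the compared groups were fitted alone (edgeR adjusted p = 0.36) or when any 1 of 7 of the 12 libraries was left out.

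Lists of genes by function were set beside these background shares, as counts without a test of the lists. The highest shares of risen members were those of cytosolic ribosomal proteins (73 of 80), mitosis (28 of 31) and DNA replication (33 of 38). The highest shares of fallen members were those of the Schlafen family (5 of 6), the GIMAP family (6 of 8), the NK and gamma delta markers (7 of 10) and the quiescence factors (17 of 30). Of 63 lists, 37 had more members that rose than fell and 23 more that fell than rose.

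**Figure D1:**
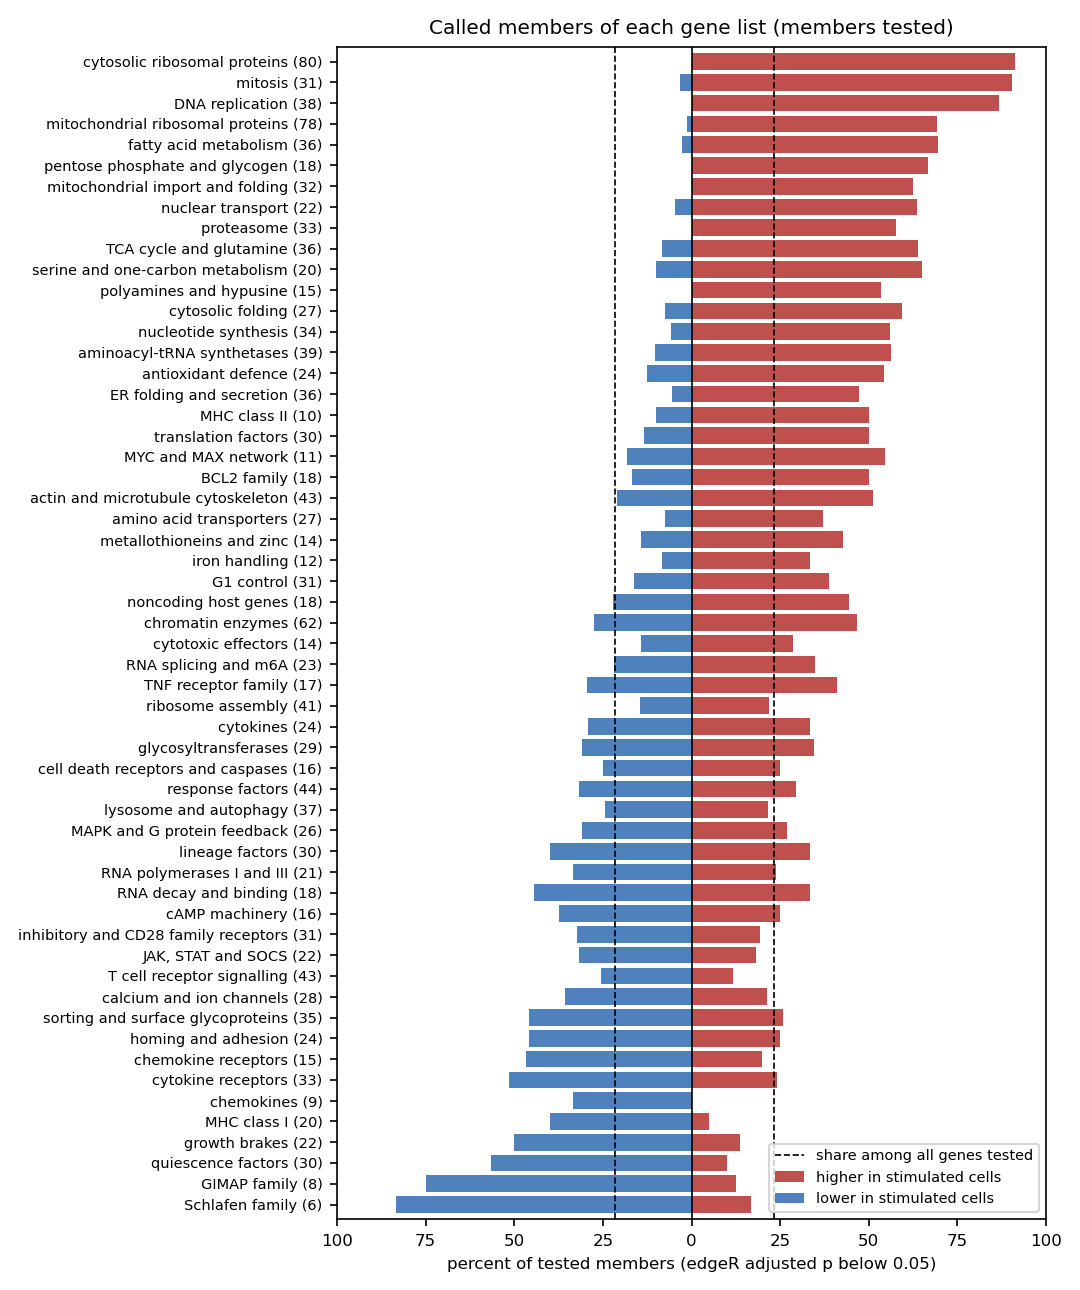
Each row is a list of genes, with the number of members tested in parentheses. Bars to the right give the percent of tested members higher in stimulated cells and bars to the left the percent lower (edgeR adjusted p below 0.05), and dashed lines mark the shares among all 16882 genes, 23.4% and 21.7%. Ribosomal protein, cell division and fatty acid lists extend furthest to the right, and Schlafen, GIMAP and quiescence lists furthest to the left.

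Receptors for cytokines fell more often than they rose. Of 33 cytokine receptor genes 8 rose and 17 fell, with a median log2 fold change of -0.85, and among those outside the common gamma chain family 14 of 25 fell. The interleukin 6 receptor chain Il6ra measured 233, 226 and 204 CPM in unstimulated and 23, 26.8 and 33 CPM in stimulated libraries (-3.0 ± 0.22; edgeR adjusted p = 1.8e-09). Every stimulated library lay far below every unstimulated one. The shared gp130 chain Il6st fell by less (-0.84 ± 0.19). Tgfbr2, the chain that binds TGF-beta, measured 511, 603 and 523 CPM unstimulated and 196, 180.2 and 162 CPM stimulated (-1.61 ± 0.13). Against this run, Il12rb2, the signalling chain of the interleukin 12 receptor, rose from 31.1, 13 and 13.8 CPM to 109, 95 and 93.9 CPM (2.36 ± 0.42). Unstimulated library 1 was the highest of its group and still well below the stimulated libraries. Il10ra, of the interleukin 10 receptor, rose from 76.8, 63.8 and 58.3 CPM to 195, 207 and 191 CPM (1.58 ± 0.17), and Il4ra, of the interleukin 4 receptor, by 0.93 ± 0.11, both without overlap.

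Of the 22 JAK, STAT and SOCS genes, which carry and dampen cytokine signals, 4 rose and 7 fell, and 11 fell with limma voom and quality weights. Jak1, a kinase of many cytokine receptors, fell from 1266, 1685 and 1381 CPM to 517, 551 and 534 CPM (-1.44 ± 0.15). Jak3, the kinase that works with the common gamma chain, moved the other way, from 247, 161 and 169 CPM to 833, 628 and 568 CPM (1.81 ± 0.35). The feedback inhibitors that STAT5 is known to induce rose, Socs2 by 1.98 ± 0.34 and Cish by 1.31 ± 0.26. Socs1 was not called, and its 749.8, 609 and 559 CPM overlapped the 673, 592 and 684 CPM of stimulated cells. Socs3 (0.26 ± 0.25) and Stat5a (-0.13 ± 0.16) were not called either.

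Genes that guide migration changed in both directions. Of 15 chemokine receptors 7 fell and 3 rose, with a median of -1.34. Cxcr6, the receptor for CXCL16 on effector and innate-like T cells, measured 478, 307 and 283 CPM without and 12.7, 7.05 and 9.95 CPM with stimulation (-5.17 ± 0.48; edgeR adjusted p = 4.6e-08). Ccr2, a receptor of inflammatory homing, fell from 84.6, 69.9 and 70.8 CPM to 4.15, 2.39 and 6.01 CPM (-4.16 ± 0.47). Cxcr3, which marks type 1 cells, fell from 265, 159 and 143 CPM to 33.7, 31.3 and 52.0 CPM (-2.28 ± 0.33). Unstimulated library 1 was the highest of its group for these 3 receptors, and no groups overlapped. The receptors that rose were Ccrl2 (2.67 ± 0.27), Ccr8 (1.89 ± 0.35) and Ccr4 (1.59 ± 0.28). Ccr4, a receptor of skin homing and type 2 cells, measured 12.7, 9.87 and 8.09 CPM and 30.1, 29.6 and 32.9 CPM. Ccr7, the receptor for lymph node entry, was not called: its 792, 1011 and 797 CPM unstimulated and 889.7, 737 and 671 CPM stimulated overlapped.

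Among 24 homing and adhesion genes 11 fell and 6 rose. S1pr1, the sphingosine 1-phosphate receptor by which T cells leave lymph nodes, fell from 844, 1284 and 1053 CPM to 190.4, 181 and 166 CPM (-2.57 ± 0.21). Itga4, the alpha 4 integrin chain, fell from 216, 259 and 322 CPM to 21, 22.2 and 17.9 CPM (-3.70 ± 0.23; edgeR adjusted p = 1.6e-10). Cd69, whose product removes S1PR1 from the surface, was higher in every stimulated library, at 84.5, 94.9 and 95.7 CPM against 41.7, 37.8 and 45.7 CPM (1.14 ± 0.34). Cd44, an adhesion receptor used as an activation marker at the protein level, was not called, with 85.5, 59.6 and 58.7 CPM unstimulated and 60.5, 53.9 and 61.6 CPM stimulated. Its groups overlapped.

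Glycosyltransferases had no common direction, with 10 rises and 9 falls among 29 and, for the sialyltransferases among them, 4 rises and 5 falls of 13. Of the enzymes known to build selectin ligands, 3 that rose are given here. The fucosyltransferase gene Fut4 was near 0 without stimulation and went from 1.33, 0.519 and 0.551 CPM to 41.8, 52.4 and 46.7 CPM (5.86 ± 0.54). Fut7, which completes the selectin ligand, went from 7.0, 3.26 and 4.45 CPM to 39.5, 39.8 and 58.1 CPM (3.22 ± 0.32). The sialyltransferase gene St3gal4 rose from 50.5, 37.6 and 34.8 CPM to 132, 133 and 131 CPM (1.69 ± 0.18). All 3 were apart between the groups, whereas Selplg, the protein that these enzymes decorate, was not called (0.03 ± 0.13). Among the glycosyltransferases that fell were St6galnac3 (-2.84 ± 0.42) and B3gnt5 (-2.02 ± 0.43).

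Costimulatory and inhibitory receptors did not move as a block. In the TNF receptor family 7 of 17 rose and 5 fell (3 when any 1 stimulated library was left out). Tnfrsf9, which encodes the costimulator 4-1BB, rose from 69.2, 35.6 and 35.7 CPM to 640.4, 428 and 471 CPM (3.45 ± 0.39). Tnfrsf18, which encodes GITR, rose from 215, 149 and 147 CPM to 1211, 967 and 973 CPM (2.63 ± 0.18). For both, library 1 was the highest in each group and the groups did not overlap. Among 31 inhibitory and CD28 family receptors 6 rose and 10 fell. Pdcd1, which encodes the checkpoint receptor PD-1, was low and fell from 19.6, 12.5 and 12.6 CPM to 6.90, 6.07 and 5.87 CPM (-1.25 ± 0.28). The gene of its ligand PD-L1, Cd274, fell from 156, 181 and 205 CPM to 16.5, 19.2 and 22.4 CPM (-3.22 ± 0.31; edgeR adjusted p = 7.1e-08), without overlap. Cd226, an activating receptor for CD155, fell by -1.85 ± 0.27, whereas Slamf7, a self-binding SLAM receptor, rose from 17.4, 7.32 and 8.39 CPM to 102, 83.2 and 70.3 CPM (2.95 ± 0.37). Icos was not called, with 43.9, 33.7 and 31.3 CPM against 39.0, 29.8 and 34.0 CPM.

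**Figure D2:**
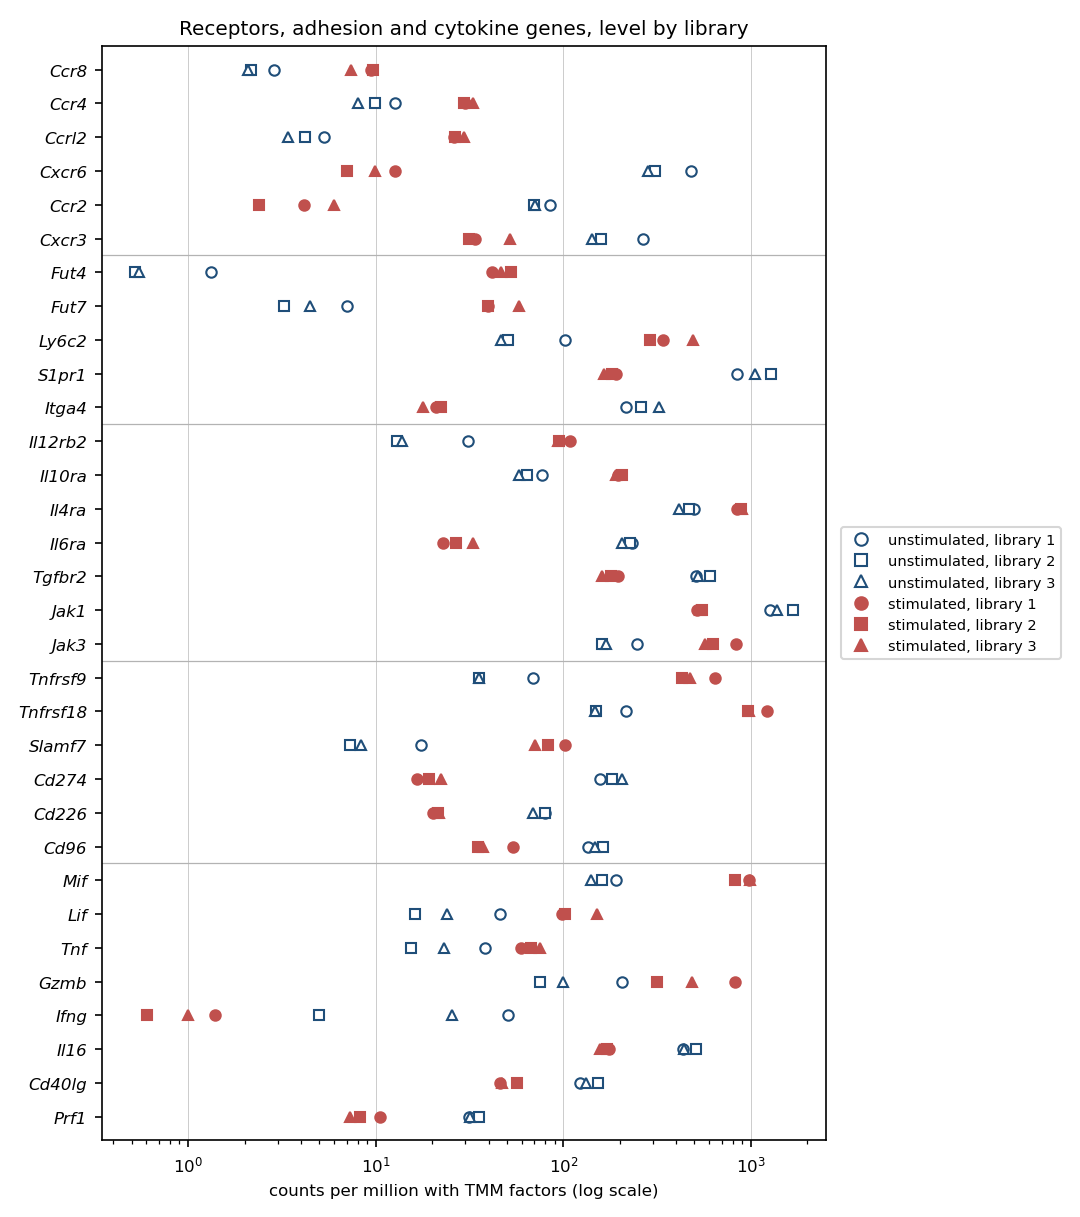
Level of each gene (rows) in each of the 6 libraries, in CPM on a log scale. Open symbols are unstimulated and filled symbols stimulated libraries, and the shape gives the library number. Cxcr6, Itga4 and Il6ra lie to the left after stimulation, and Fut4, Fut7, Slamf7 and Tnfrsf9 to the right.

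Secreted factors split as well. Of 24 cytokine genes 8 rose and 7 fell. Mif, an abundant inflammatory mediator, rose from 192, 159.9 and 141 CPM to 978, 821 and 989 CPM (2.50 ± 0.23). Lif, of the interleukin 6 family, rose by 2.03 ± 0.44 and Lta, which encodes lymphotoxin alpha, by 1.55 ± 0.28, and unstimulated library 1 was the highest of its group for both. Ifng, the type 1 cytokine, was higher without stimulation, at 50.9, 4.96 and 25.6 CPM against 1.4, 0.607 and 1.0 CPM (-4.76 ± 1.02; edgeR adjusted p = 7.5e-04). Its unstimulated libraries were far apart from each other, with library 1 the highest and library 2 the lowest. Il16, a chemoattractant of CD4+ cells (-1.47 ± 0.17), and Tnfsf14, which encodes LIGHT (-2.08 ± 0.47), also fell. Il2 stayed below 1 CPM in every library (0.373, 0.850 and 0.974 CPM unstimulated, 0.393, 0.0758 and 0.823 CPM stimulated) and was not called. Of the cytotoxic effectors the granzyme gene Gzmb rose from 205, 74.9 and 100.01 CPM to 827, 315 and 485 CPM (2.10 ± 0.52). Prf1, which encodes the pore-forming perforin, fell from 31.3, 35.5 and 31.9 CPM to 10.6, 8.23 and 7.30 CPM (-1.92 ± 0.24).

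Of the genes of the T cell receptor complex and coreceptor 1 fell, and 4 fell with limma voom and quality weights. Of all 43 genes of T cell receptor signalling 5 rose (11.6%) and 11 fell (25.6%), against 23.4% and 21.7% of all genes tested. These counts were 13 and 19 with limma voom and quality weights and 3 and 7 without stimulated library 3, and 3 rose without unstimulated library 2 or 3. Dgka, a diacylglycerol kinase that restrains signalling, fell from 1084, 1207 and 1277 CPM to 395, 419 and 396 CPM (-1.56 ± 0.17). The ubiquitin ligase gene Peli1 fell from 430.0, 597 and 519 CPM to 134, 131 and 116 CPM (-2.02 ± 0.17). The phosphatase gene Ptpn6 (0.87 ± 0.11) and the ligase adaptor Ndfip1 (1.27 ± 0.16) rose, so that genes known as brakes on activation were found on both sides.

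Among calcium and ion channel genes 10 of 28 fell and 6 rose. The calcium store sensor Stim1 fell from 255, 249 and 232 CPM to 102, 106 and 91.3 CPM (-1.30 ± 0.13). The channel subunit gene Orai2 fell from 168, 219.7 and 189.6 CPM to 41.6, 40.3 and 38.5 CPM (-2.26 ± 0.18; edgeR adjusted p = 5.8e-09), whereas Orai1, which forms the main calcium channel of T cells, was not called (-0.40 ± 0.30). The potassium channels parted: voltage-gated Kcna3 fell by -1.54 ± 0.29 and the background channel Kcnk5 rose from 38.8, 20.8 and 22.1 CPM to 130.2, 133 and 135 CPM (2.28 ± 0.27). Of 16 genes that make, break or read cyclic AMP, a messenger that restrains T cells, 4 rose and 6 fell. The phosphodiesterase gene Pde4b fell from 218, 272 and 249.9 CPM to 77.9, 66.1 and 66.8 CPM (-1.81 ± 0.20). In the list of MAP kinase and G protein feedback 7 of 26 rose (12 with limma voom) and 8 fell, with the phosphatase genes Dusp4 (3.05 ± 0.52) and Dusp22 (2.23 ± 0.21) higher and Dusp10 (-1.56 ± 0.20) and the RAS inhibitor Rasa3 (-1.29 ± 0.14) lower.

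Of the transcription factors that respond to the receptor, AP-1 genes rose more often than they fell and NF-kappaB genes fell more often than they rose. The AP-1 and CREM genes gave 7 rises and 3 falls among 14 (4 rises without stimulated library 1 or unstimulated library 2 or 3). Fos rose from 8.16, 10.9 and 10.6 CPM to 51.3, 64.4 and 74.8 CPM (2.69 ± 0.25). Its family member Fosl2 rose from 5.43, 3.54 and 2.58 CPM to 33, 26.8 and 16.4 CPM (2.72 ± 0.37). Atf3, a stress-induced member, was close to 0 and rose from 0.663, 0.189 and 0.0847 CPM to 8.47, 10.1 and 11.5 CPM (4.96 ± 0.55). In these 3 the groups were apart. The NF-kappaB genes gave 2 rises, Nfkb1 (1.08 ± 0.14) and its partner Bcl3 (1.45 ± 0.36), and 8 falls among 16. The falls numbered 3 without stimulated library 2, stimulated library 3 or unstimulated library 1, and 5 without unstimulated library 3. The subunit gene Rel was among those that fell (-1.18 ± 0.20), as was Nfatc3 of the NFAT family (-1.14 ± 0.13). The orphan receptor gene Nr4a1, an early reporter of receptor signals, was at 10.5, 1.98 and 2.71 CPM unstimulated and 40.6, 31.7 and 28.6 CPM stimulated (2.72 ± 0.54), while Egr1 and Egr3 were not called.

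Of 30 lineage factors 10 rose and 12 fell. Nfil3, a basic leucine zipper factor, rose from 11.4, 8.64 and 8.34 CPM to 237, 193 and 208 CPM (4.49 ± 0.19; edgeR adjusted p = 2.5e-13), with little spread within either group. Eomes, better known from cytotoxic and memory cells, rose from 10.7, 4.44 and 6.02 CPM to 81, 80.9 and 107 CPM (3.67 ± 0.37). Bhlhe40 (2.59 ± 0.37), Irf4, which reads the strength of the receptor signal (2.20 ± 0.33), and Irf8 (1.73 ± 0.34) rose too. Bcl6, the factor of follicular helper cells, fell from 36.9, 35.4 and 39.1 CPM to 2.18, 3.98 and 6.41 CPM (-3.14 ± 0.29), and Rora, an innate-like and type 17 factor, by -2.27 ± 0.35. Tbx21, the type 1 factor, measured 152, 70.1 and 69.5 CPM and 40.0, 27.0 and 28.0 CPM (-1.62 ± 0.47; edgeR adjusted p = 0.0085). Unstimulated library 1 stood above its group there, and without it the edgeR adjusted p was 0.065. Gata3 (-0.38 ± 0.27), Prdm1 (-0.05 ± 0.20) and Batf (0.36 ± 0.21) were not called.

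Factors of the resting state fell more often than genes at large. Of 30 quiescence factors 17 fell and 3 rose, with a median of -0.63. Klf2, which keeps T cells quiescent and is known to drive S1pr1, fell from 1189, 1644 and 1293 CPM to 366, 356 and 349 CPM (-1.94 ± 0.42). Klf3, a related repressor, fell from 246, 313 and 265 CPM to 47.6, 48.9 and 51.7 CPM (-2.47 ± 0.21). Zbtb20 fell from 115, 123 and 138 CPM to 17.9, 16.0 and 11.6 CPM (-3.05 ± 0.31). The groups were far apart for each, and Foxo1 fell by less (-1.08 ± 0.25). The 3 that rose were Klf10 (0.84 ± 0.21), Foxo3 (0.89 ± 0.26) and the cell division factor Foxm1 (1.38 ± 0.33).

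Among 22 growth brakes 11 fell (7 without stimulated library 2 or 3) and 3 rose. Txnip, which limits glucose uptake, fell from 898, 941 and 963 CPM to 499, 457 and 369 CPM (-1.08 ± 0.18). The PI3 kinase inhibitor gene Pik3ip1 fell from 281, 343 and 339.8 CPM to 142, 112 and 91.3 CPM (-1.48 ± 0.26). The 3 brakes that rose all encode inhibitors of mTORC1, the kinase complex that drives growth. Ddit4 went from 18.6, 17.9 and 11.1 CPM to 272, 217 and 213 CPM (3.88 ± 0.39). Sesn2, a leucine sensor, went from 24.1, 15.3 and 14.5 CPM to 76.8, 69.6 and 65.6 CPM (1.97 ± 0.26) and Castor1, an arginine sensor, from 35.2, 29.3 and 26.2 CPM to 98.7, 86.6 and 88.8 CPM (1.59 ± 0.17). Sesn1, a relative of Sesn2, was among the brakes that fell (-1.35 ± 0.16).

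Families of small immune genes fell beside them. Of the Schlafen family, interferon-inducible regulators of T cell growth, 5 of 6 fell (3 without stimulated library 1). Slfn8 went from 195, 252 and 254 CPM to 24.1, 26.2 and 31.3 CPM (-3.10 ± 0.37), with no overlap. Of the GIMAP family, GTPases of lymphocyte survival, 6 of 8 fell, Gimap3 among them (-0.88 ± 0.11), and Gimap7 rose (0.94 ± 0.25).

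**Figure D3:**
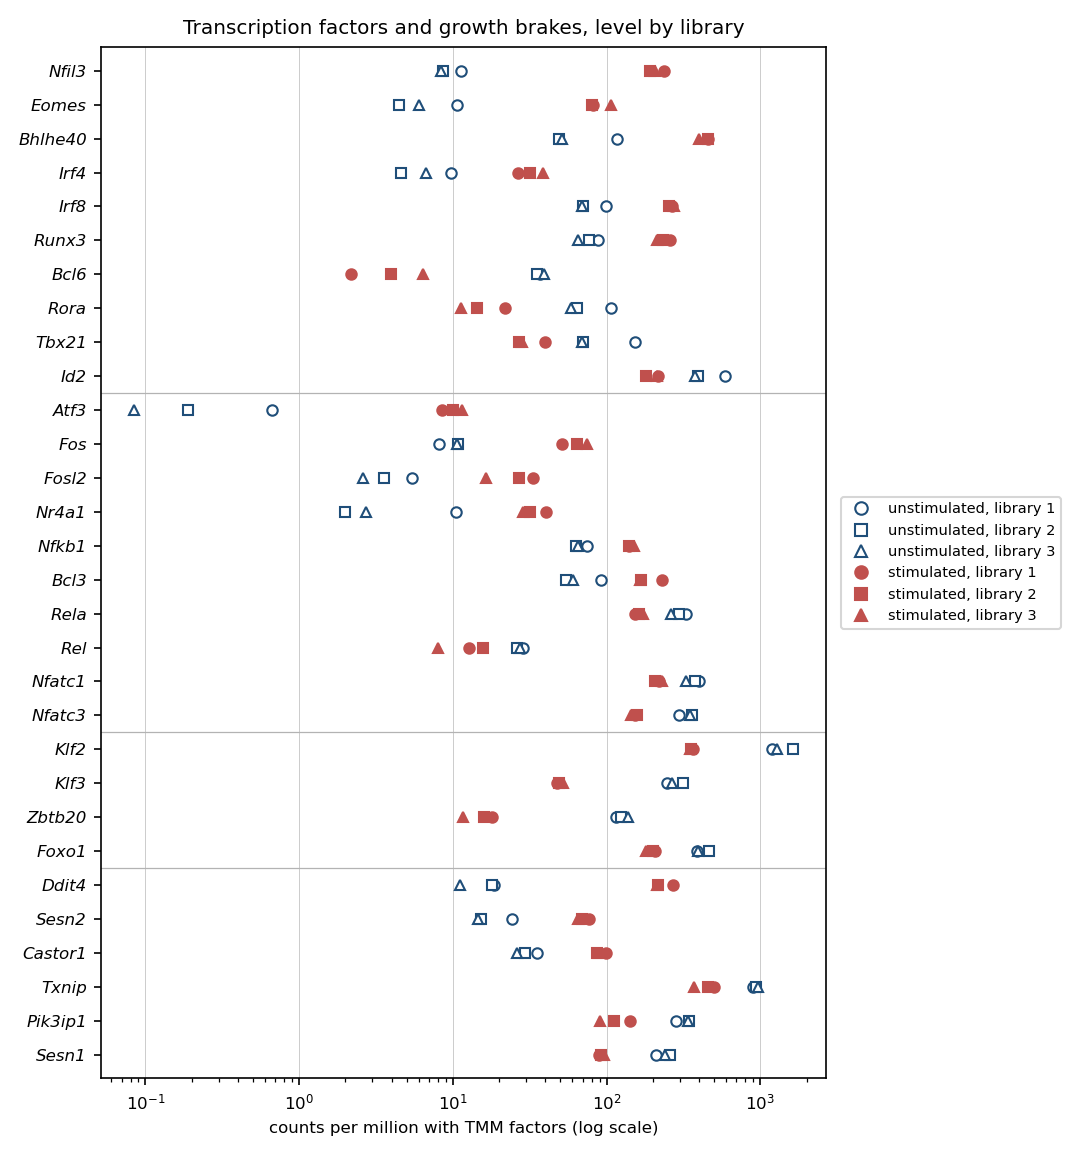
Level of each transcription factor or growth brake gene (rows) in each of the 6 libraries, in CPM on a log scale. Open symbols are unstimulated and filled symbols stimulated libraries, and the shape gives the library number. Atf3, Nfil3 and Ddit4 lie furthest to the right of their unstimulated levels, and Bcl6, Zbtb20 and Klf3 furthest to the left.

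Ribosomal protein genes rose while the list of ribosome assembly genes stayed near the background. Of 80 cytosolic ribosomal protein genes 73 rose and 0 fell, with a median log2 fold change of 0.91. Rps2, of the small subunit, went from 429, 427 and 352 CPM to 1152, 996 and 1071 CPM (1.41 ± 0.15) and Rpl7a, of the large subunit, from 142, 124 and 118 CPM to 375, 328 and 366 CPM (1.47 ± 0.17). Their counts may be shared with processed pseudogenes. Among 41 ribosome assembly genes 9 rose and 6 fell, with a median of -0.10 (5 rose without unstimulated library 3, and 3 fell without stimulated library 1 or unstimulated library 1). The nucleolar chaperone gene Npm1 rose from 169, 268 and 265 CPM to 668, 758 and 787 CPM (1.65 ± 0.30), but Ncl, which encodes nucleolin, was not called (0.07 ± 0.19). For RNA polymerases I and III, which make ribosomal and transfer RNA, 5 of 21 rose and 7 fell (8 rose with limma voom, 3 with no filter on low counts). Ubtf, the polymerase I factor of ribosomal DNA, fell from 253, 261 and 223 CPM to 116, 131 and 155 CPM (-0.88 ± 0.14).

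The elongation and release factors of translation gave 8 rises of 10, with a median of 1.02. Eef2, which moves the ribosome along, rose from 1206, 1132 and 1006 CPM to 3175, 2731 and 2533 CPM (1.34 ± 0.14). Eif4ebp1, the repressor of cap-dependent initiation that mTORC1 silences, showed the largest rise among the translation factors named here. It measured 11.4, 13.5 and 9.95 CPM unstimulated and 273, 227 and 279 CPM stimulated (4.48 ± 0.21; edgeR adjusted p = 1.9e-12).

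Mitochondrial protein synthesis genes rose as well. Of 78 mitochondrial ribosomal protein genes 54 rose and 1 fell (median 0.60), and of 32 import and folding genes 20 rose and 0 fell (13 rose without stimulated library 3). The matrix protease gene Lonp1 rose from 114, 76.9 and 75.5 CPM to 429.8, 409 and 399 CPM (2.21 ± 0.17). Cytosolic aminoacyl-tRNA synthetases, which charge tRNAs, gave 18 rises and 1 fall among 22. The mitochondrial enzymes gave 4 rises and 3 falls among 17, and a difference between the classes was not tested. Cars, for cysteine, rose from 60.2, 49.5 and 52.1 CPM to 213, 236 and 197 CPM (2.0 ± 0.12). Yars, for tyrosine, rose from 76.3, 65.9 and 60.9 CPM to 198, 227 and 221 CPM (1.67 ± 0.18). The cytosolic enzyme that fell was Wars, for tryptophan, a gene that interferon gamma is known to induce. It was at 345, 320.0 and 302 CPM unstimulated and 135, 201 and 238 CPM stimulated (-0.75 ± 0.20; edgeR adjusted p = 0.0046).

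Of 27 amino acid transporters 10 rose and 2 fell. Those of the plasma membrane gave 9 rises and 2 falls of 19, and those of the lysosome 1 rise and 0 falls of 8 (median -0.23). Both chains of the large neutral amino acid carrier rose. Slc7a5, the transporting chain, went from 133, 87.7 and 65.8 CPM to 438, 498 and 555 CPM (2.38 ± 0.26) and Slc3a2, the anchoring chain, from 157, 132 and 114 CPM to 375, 368 and 404 CPM (1.51 ± 0.19). The serine and alanine carrier gene Slc1a4 rose from a low level, 2.24, 1.28 and 1.02 CPM, to 16.5, 25 and 20.04 CPM (3.76 ± 0.47). The glutamine carrier gene Slc1a5 was not called (0.27 ± 0.23). All 3 serine synthesis genes rose, Psat1 from 101, 62.0 and 51.2 CPM to 311, 409 and 467 CPM (2.47 ± 0.32). Of the mitochondrial folate genes, which turn serine and glycine into folate-bound carbon, 6 of 7 rose. The glycine decarboxylase gene Gldc among them went from 0.870, 0.142 and 0.720 CPM to 12.7, 22.8 and 35.8 CPM (5.33 ± 0.67), from below 1 CPM in every unstimulated library. In the cytosolic cycle Mtr, the methionine synthase gene, fell (-1.07 ± 0.21).

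The bases upstream of these genes were read for the composite element that ATF4 and its partners bind, TGATGNAA (TTNCATCA in the opposite orientation). The windows were the 250 bases before each start in RefSeq, on mouse build GRCm38.p6. The element was found for 1.92% of the 10888 tested genes with a promoter in the table, 2.40% of those that rose and 2.19% of those that fell. It was found for 3 of the 14 cytosolic synthetases with a promoter there (21.4%) and for 0 of 14 mitochondrial ones. Plasma membrane amino acid transporters held it in 2 of 13 promoters. Serine synthesis genes held it in 0 of 3 and mitochondrial folate genes in 0 of 6, so it was not a common trait of these lists. The stretches below are shown because they belong to risen genes of amino acid supply and stress signalling and hold the element, in capitals. They are Asns, asparagine synthetase, Gars and Tars, the glycine and threonine synthetases, Got1, an aspartate transaminase, and Atf3. Each runs 5′ to 3′ on the gene's strand.
Asns, chr6:7693210-7693239, minus strand: agccacaTGATGAAActtcccgcacgcgtt
Gars, chr6:55037881-55038000, plus strand: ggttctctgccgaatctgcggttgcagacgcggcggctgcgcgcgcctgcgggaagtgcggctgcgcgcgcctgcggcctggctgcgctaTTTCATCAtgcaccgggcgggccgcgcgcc
Tars, chr15:11399659-11399778, minus strand: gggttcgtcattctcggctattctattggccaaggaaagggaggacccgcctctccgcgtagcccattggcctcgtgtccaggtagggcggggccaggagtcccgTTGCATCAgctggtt
Got1, chr19:43524606-43524725, minus strand: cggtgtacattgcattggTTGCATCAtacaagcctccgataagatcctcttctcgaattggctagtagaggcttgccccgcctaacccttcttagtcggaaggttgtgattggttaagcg
Atf3, chr1:191183334-191183453, minus strand: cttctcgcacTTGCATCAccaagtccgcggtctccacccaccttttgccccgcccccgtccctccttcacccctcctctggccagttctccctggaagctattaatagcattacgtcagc
Asns rose from 3.98, 2.60 and 1.69 CPM to 115, 138 and 151 CPM (5.60 ± 0.42; edgeR adjusted p = 1.9e-09). Gars went from 188, 179.6 and 156 CPM to 467, 537 and 539 CPM (1.56 ± 0.16). Tars (0.73 ± 0.13) and Got1 (1.22 ± 0.18) rose by less. A match describes letters, not binding, and most risen genes do not hold it.

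Genes of the mitochondrial carbon cycle rose more often than they fell. In the list of the tricarboxylic acid cycle and glutamine 23 of 36 rose and 3 fell. The 18 cycle enzymes gave 12 rises and 1 fall, with a median of 0.60, and the 18 entry and refilling genes 11 and 2, with a median of 0.75. At least 2-fold rises were made by 9 of the 18 entry and refilling genes and by 3 of the 18 cycle enzymes, a difference that was not tested. Pcx, the pyruvate carboxylase gene whose enzyme makes oxaloacetate, rose from 15.0, 11.5 and 13.3 CPM to 335, 399 and 341 CPM (4.76 ± 0.20; edgeR adjusted p = 2.9e-13). The mitochondrial alanine transaminase gene Gpt2 rose from 2.32, 1.79 and 0.974 CPM to 41.1, 44.9 and 48.1 CPM (4.72 ± 0.37). The branched-chain transaminase gene Bcat1 rose from 5.18, 1.65 and 1.95 CPM to 46.8, 66.7 and 63.0 CPM (4.32 ± 0.49). For these 3 the groups were apart by far more than their spread.

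Lipid synthesis genes rose. Of 15 synthesis and desaturation genes 12 rose, 11 of them at least 2-fold, and 1 fell. Scd2, a desaturase that makes monounsaturated fatty acids, rose from 56.4, 27.8 and 34.2 CPM to 1177, 1299 and 1197 CPM (4.95 ± 0.32; edgeR adjusted p = 2.1e-10). The delta-6 desaturase gene Fads2 was below 1 CPM without stimulation, at 0.539, 0.236 and 0.381 CPM, and rose to 116, 123 and 127 CPM (8.27 ± 0.55). Acly and Fasn, which make acetyl-CoA and join it into chains, were well expressed before and rose by less (1.43 ± 0.11 and 1.21 ± 0.19). Per length, in TPM (counts divided by gene length and scaled to one total per library), Scd2 reached 598 ± 52.8 TPM and Fasn 160.4 ± 11 TPM in stimulated cells (SD, n = 3). Of the activation and uptake genes Acsl6 rose from 0.332, 0 and 0.0424 CPM to 11.8, 23.3 and 15.8 CPM (6.98 ± 0.74) and the fatty acid carrier Fabp5 by 3.41 ± 0.30. Oxidation genes also rose, 6 of 12 with 0 falls, while Cpt1a, the entry step into mitochondria, was not called (-0.17 ± 0.16).

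Genes of glycogen turnover rose steeply. Of 11 glycogen genes 7 rose and 0 fell, with a median of 2.42. Pygl, the liver-type phosphorylase that frees glucose 1-phosphate, was nearly silent before stimulation, with 0.705, 0.661 and 0.339 CPM against 144, 126 and 112 CPM (7.80 ± 0.53; edgeR adjusted p = 4.2e-10). Its muscle-type relative Pygm rose from 0.663, 0.850 and 0.720 CPM to 13.2, 12.2 and 12.6 CPM (4.08 ± 0.39). Genes of synthesis rose together with these genes of breakdown. The branching enzyme gene Gbe1 went from 24.9, 39.4 and 32.7 CPM to 181, 201 and 186 CPM (2.55 ± 0.21) and the synthase gene Gys1 from 20.6, 21.2 and 16.6 CPM to 137, 95.6 and 99.6 CPM (2.51 ± 0.19). Pgm1, which joins glycogen to glycolysis, rose from 58.1, 50.6 and 47.4 CPM to 581, 590.1 and 527 CPM (3.44 ± 0.19). In the pentose phosphate pathway 5 of 7 rose (3 without unstimulated library 3).

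A form of the core of the hypoxia response element, NACGTG, was searched for, with its reverse on the other strand, CACGTN. Other forms of that core were not searched. The motif lay in the 250 bases before the start of 60.0% of the 10 glycogen genes with a promoter in the table. The share was 21.6% among all tested genes, 24.2% among those that rose and 19.5% among those that fell. The motif is not particular to glycogen genes. It lay in 66.7% of the 6 promoters of G1 cyclins and kinases and in 57.1% of the 14 promoters of mitotic kinases, cyclins and checkpoint genes. The motif overlaps the E-box CACGTG. The promoters of both phosphorylases and of Pgm2, a phosphoglucomutase-family gene of the list (0.57 ± 0.12), are shown because they hold the motif, in capitals.
Pygl, chr12:70227684-70227823, minus strand: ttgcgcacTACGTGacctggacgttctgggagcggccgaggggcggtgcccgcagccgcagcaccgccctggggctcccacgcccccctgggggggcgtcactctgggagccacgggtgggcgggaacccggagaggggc
Pygm, chr19:6384268-6384407, plus strand: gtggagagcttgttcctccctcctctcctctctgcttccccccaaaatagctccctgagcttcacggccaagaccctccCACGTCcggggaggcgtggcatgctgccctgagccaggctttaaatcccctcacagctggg
Pgm2, chr5:64092799-64092938, plus strand: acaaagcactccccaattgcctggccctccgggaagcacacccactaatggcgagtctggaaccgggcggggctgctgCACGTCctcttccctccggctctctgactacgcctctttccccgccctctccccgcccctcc
In these stretches the match began 132 bases before the start for Pygl, 61 for Pygm and 62 for Pgm2.

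**Figure D4:**
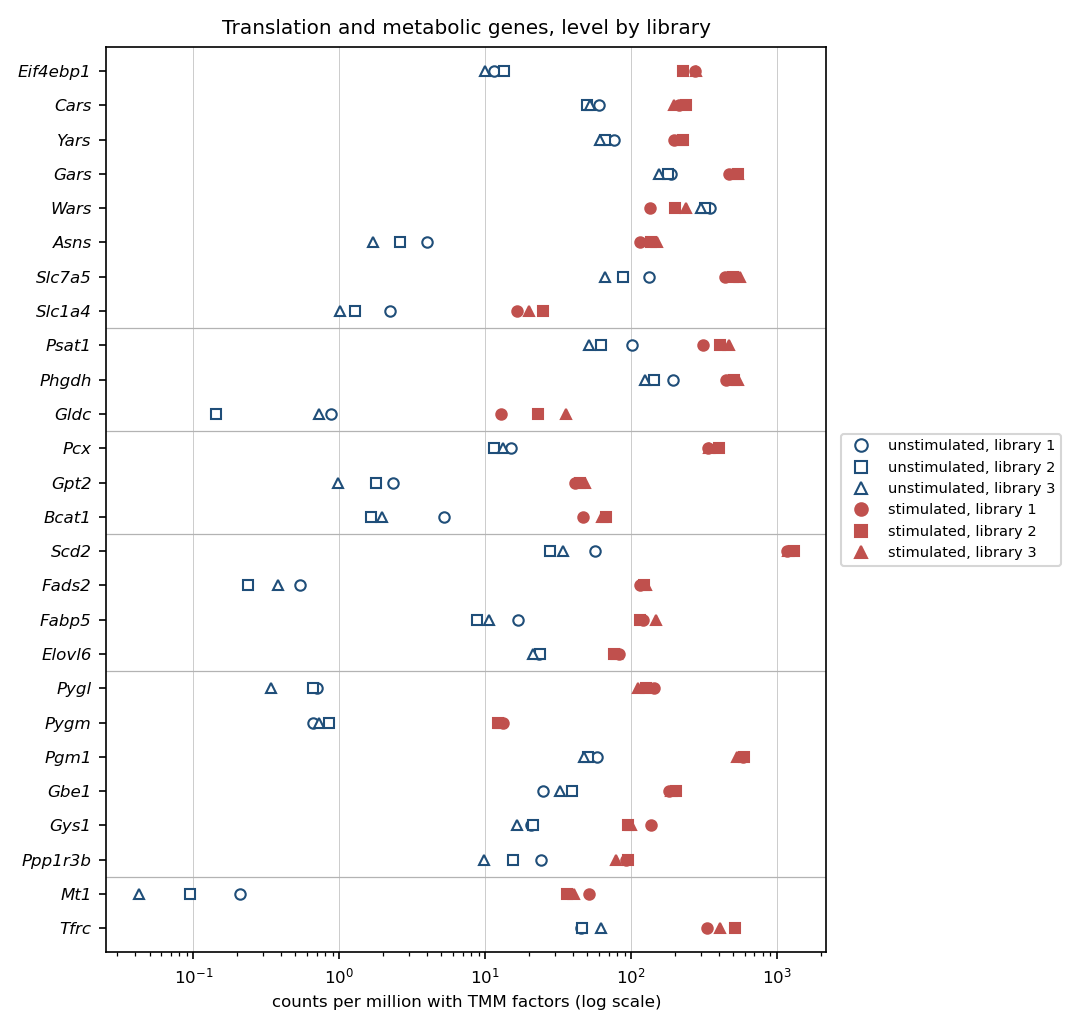
Level of each translation or metabolic gene (rows) in each of the 6 libraries, in CPM on a log scale. Open symbols are unstimulated and filled symbols stimulated libraries, and the shape gives the library number. Mt1, Fads2, Pygl, Asns and Gldc lie furthest to the right of their unstimulated levels, and Wars lies to the left.

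Nucleotide and polyamine genes rose more often than they fell. Of 34 nucleotide synthesis genes 19 rose and 2 fell. The uridine salvage gene Uck2 rose from 119, 103 and 88.4 CPM to 341, 328 and 353 CPM (1.72 ± 0.17), while the entry enzymes of pyrimidine and purine synthesis, Cad (0.21 ± 0.22) and Ppat (0.21 ± 0.21), were not called. The members that fell were Samhd1, whose product degrades deoxynucleotides, and Rrm2b, the reductase subunit of non-dividing cells (-1.69 ± 0.34). Samhd1 went from 1539.7, 1721 and 2014 CPM to 726, 757 and 796 CPM (-1.21 ± 0.22). For polyamines 8 of 15 rose and 0 fell, the ornithine decarboxylase gene Odc1 (1.42 ± 0.28) and the spermine oxidase gene Smox (2.14 ± 0.23) among them. The transferrin receptor gene Tfrc, for iron uptake, rose from 45.3, 46.0 and 62.1 CPM to 333, 513 and 408 CPM (3.03 ± 0.42). Of 14 metallothionein and zinc genes 6 rose and 2 fell. The metallothionein gene Mt1, whose product binds zinc and copper, rose from 0.207, 0.0945 and 0.0424 CPM to 51.3, 36.1 and 40.4 CPM (8.46 ± 0.50). It was close to absent without stimulation.

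Genes of cell division rose from levels that were well above 0 in cells kept in IL-2 alone. Of 38 DNA replication genes 33 rose and 0 fell (median 1.13), and of 31 mitosis genes 28 rose and 1 fell (median 1.56). Top2a, the topoisomerase of dividing cells, was at 277, 216 and 205 CPM unstimulated and 638, 656 and 628 CPM stimulated (1.46 ± 0.37). Ccnb1, a mitotic cyclin gene, went from 52.4, 36.5 and 38.9 CPM to 169.9, 208 and 235 CPM (2.26 ± 0.40). Aurkb, a kinase of chromosome separation, went from 117, 51.5 and 59.0 CPM to 353, 401 and 386 CPM (2.33 ± 0.34). Unstimulated library 1 was the highest of its group for these 3, and below every stimulated library. Without it 28 of the mitosis genes and 35 of the replication genes rose. The exception among mitosis genes was the securin gene Pttg1, which fell from 56.9, 69.9 and 63.7 CPM to 38.2, 33.4 and 37.3 CPM (-0.81 ± 0.23). The helicase genes Mcm2 (0.45 ± 0.25) and Mcm4 (0.24 ± 0.20) were not called, and for Mcm2 unstimulated library 1 (414 CPM) overlapped the stimulated libraries. Without that library Mcm2 was called higher (0.69, edgeR adjusted p = 0.048). Fits with no filter on low counts and of the compared groups alone called it higher too (edgeR adjusted p of 0.035 and 0.044). So did limma voom with quality weights (limma voom adjusted p = 0.0078).

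The CCAAT box, bound by NF-Y and known from promoters of mitotic genes, was looked for in the 250 bases before each start (ATTGG in the opposite orientation). It lay in 80.0% of the 25 mitosis promoters in the table and in 60.0% of the 30 replication promoters, against 36.0% of all tested genes, 38.8% of risen and 33.9% of fallen genes. The stretches below are shown because each belongs to a risen mitosis gene and holds more than 1 box within 100 bases of the start, in capitals. They are the cyclin Ccnb2, the kinases Aurka and Ttk and the anaphase activator Cdc20.
Ccnb2, chr9:70421555-70421654, minus strand: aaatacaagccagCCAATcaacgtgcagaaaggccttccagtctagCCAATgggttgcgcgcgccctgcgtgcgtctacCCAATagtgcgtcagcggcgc
Aurka, chr2:172370571-172370670, minus strand: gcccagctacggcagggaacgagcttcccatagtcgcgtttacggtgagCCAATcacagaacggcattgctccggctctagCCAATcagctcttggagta
Ttk, chr9:83834589-83834688, plus strand: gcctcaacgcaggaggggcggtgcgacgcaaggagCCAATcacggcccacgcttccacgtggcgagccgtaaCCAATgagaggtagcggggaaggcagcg
Cdc20, chr4:118437344-118437443, minus strand: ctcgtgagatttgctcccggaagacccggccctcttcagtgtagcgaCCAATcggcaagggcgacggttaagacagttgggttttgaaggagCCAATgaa
Aurka rose from 64.8, 29.1 and 29.7 CPM to 199.9, 195 and 201 CPM (2.27 ± 0.34), and Ccnb2, Ttk and Cdc20 rose by 2.19 ± 0.34, 1.35 ± 0.36 and 2.03 ± 0.30. The boxes of Ccnb2 began 87, 54 and 21 bases before the start and those of Aurka 51 and 19 bases before it. The box is common and not particular to these genes: it lay in 13 of 13 promoters of endoplasmic reticulum chaperones. The E2F element TTTCCCGC was rarer. It lay in 3 of 14 promoters of origin licensing and helicase genes (21.4%) against 1.76% of all tested genes, 2.04% of risen and 1.5% of fallen ones. Replication fork and chromatin assembly genes held it in 0 of 16 promoters. The share was also high for E2F and RB genes (2 of 8) and for the snoRNP core and nucleolar organisers (2 of 9).

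In G1 control 6 of 9 cyclins and kinases rose and 0 fell. Cdk6, which opens G1, rose from 63.0, 33 and 37.1 CPM to 311, 301 and 265 CPM (2.72 ± 0.30). The D-type cyclin gene Ccnd2 was not called (-0.04 ± 0.20). The inhibitors parted. Cdkn1a, which encodes p21, rose from 20.1, 5.34 and 7.54 CPM to 189, 134 and 151 CPM (3.84 ± 0.50). Cdkn1b, which encodes p27 and holds resting T cells in G0, fell from 97.5, 125 and 124 CPM to 60.8, 60.3 and 54.7 CPM (-0.98 ± 0.25). The antiproliferative genes Btg1 and Btg2, known to keep T cells quiescent, fell together. Btg1 went from 717, 1076 and 867 CPM to 272, 206 and 225 CPM (-1.92 ± 0.24) and Btg2 from 298, 387 and 324 CPM to 62.5, 66.5 and 69.2 CPM (-2.35 ± 0.16). In the MYC network 6 of 11 rose and 2 fell, with Myc at 238, 224 and 177 CPM and 581, 682 and 649 CPM (1.58 ± 0.22).

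**Figure D5:**
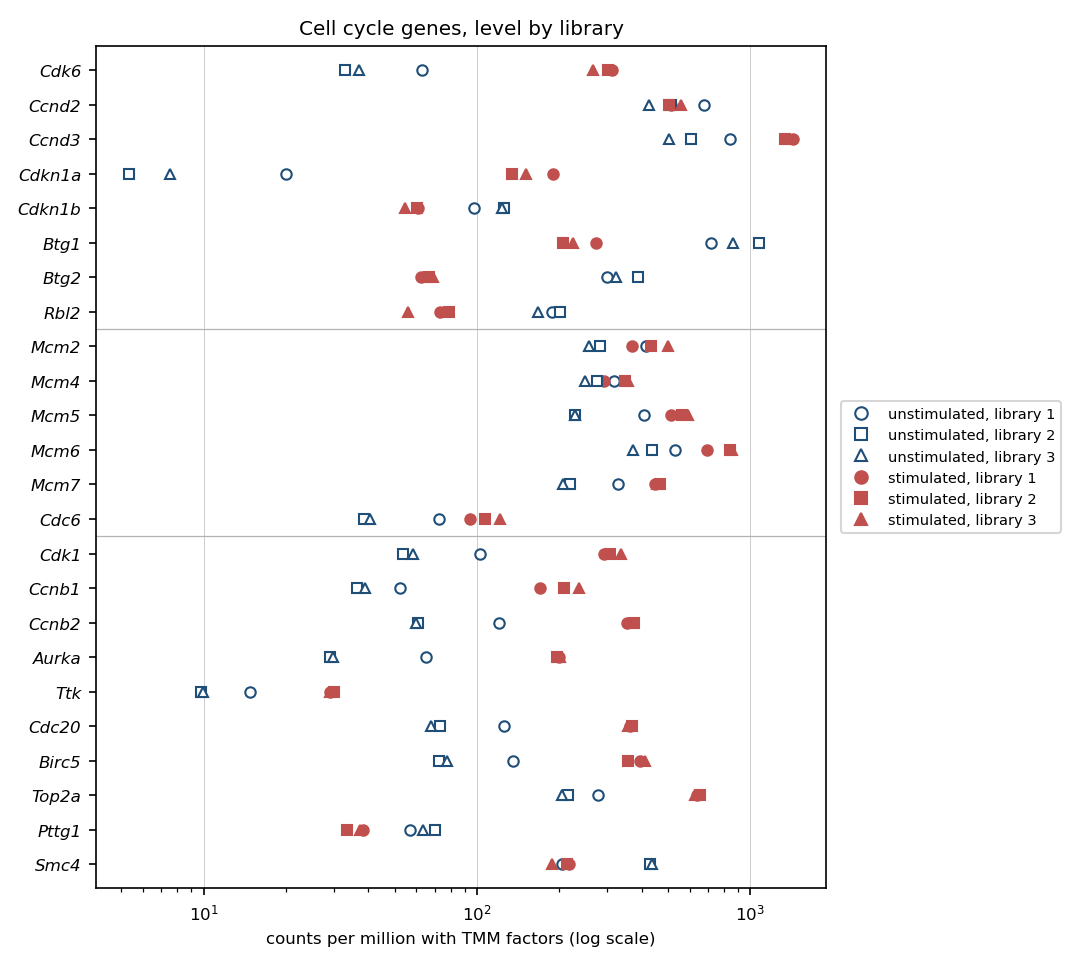
Level of each cell cycle gene (rows) in each of the 6 libraries, in CPM on a log scale. Open symbols are unstimulated and filled symbols stimulated libraries, and the shape gives the library number. For Top2a, Ccnb1 and Aurka unstimulated library 1 (open circle) lies between the other unstimulated libraries and the stimulated ones, and Btg1, Btg2, Cdkn1b and Pttg1 lie to the left after stimulation.

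Genes that fold, move and remove proteins rose more often than genes at large. The proteasome gave 19 rises and 0 falls among 33, with 12 of 14 in the core particle. Chaperonin and prefoldin genes, which fold actin and tubulin, gave 10 rises of 14, and nuclear transport genes 14 rises and 1 fall among 22. In the endoplasmic reticulum list 17 of 36 rose and 2 fell. Its chaperones and disulfide isomerases gave 7 rises of 17 (2 without stimulated library 3, 3 without unstimulated library 2 or 3). Xbp1, the factor of the unfolded protein response, rose from 232, 186 and 162 CPM to 866, 1015 and 1002 CPM (2.31 ± 0.18). Ero1l, the oxidase that drives disulfide bonds, rose from 98.6, 76.2 and 67.1 CPM to 774, 750.0 and 704 CPM (3.20 ± 0.27). Both were apart between groups. Lysosome and autophagy genes had no common direction, with 8 rises and 9 falls among 37 (14 falls with limma voom). There the protease gene Ctsd fell (-0.95 ± 0.13) and the autophagosome gene Gabarapl1 rose from 11.8, 9.59 and 9.06 CPM to 46.5, 45.7 and 49.3 CPM (2.22 ± 0.18).

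Antigen presentation genes changed in both directions. In the MHC class I list 8 of 20 fell (5 without unstimulated library 1) and 1 rose. Nlrc5, the class I transactivator, fell from 474, 394 and 476 CPM to 228, 224 and 198 CPM (-1.05 ± 0.16), and the gene that rose was the immunoproteasome subunit Psmb8 (0.63 ± 0.15). In the class II list 5 of 10 rose and 1 fell. H2-DMa, a peptide editor, rose from 109, 76.4 and 72.8 CPM to 239.6, 216 and 221 CPM (1.39 ± 0.18) and H2-Oa, of its inhibitor, from 4.93, 3.35 and 3.05 CPM to 34.3, 27.3 and 31.4 CPM (3.03 ± 0.31). H2-Ob, of the same inhibitor, fell (-2.44 ± 0.36). The class II chain gene H2-Aa was not called (9.20, 1.79 and 4.53 CPM against 1.4, 0 and 2.04 CPM; edgeR adjusted p = 0.071). It was called lower with DESeq2, limma voom, no filter on low counts and the replicate block (adjusted p of 0.038, 0.0077, 2.0e-04 and 0.024), and the class II list then had 2 or 3 falls. The summed B cell and myeloid markers given above reached levels of the size of those of H2-Aa. A part of such cells in the class II values was not tested.

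Killer genes of the BCL2 family rose or were not called, and its survival genes had no common direction. Of this family 7 of 12 killer members rose and 0 fell, among them the pore-forming Bak1 (3.77, 1.98 and 2.03 CPM to 6.37, 5.38 and 7.45 CPM, 1.30 ± 0.30). Of 6 survival members 2 rose and 3 fell, with a median of -0.25 (1 fell without stimulated library 2). Of 16 death receptor and caspase genes 4 rose and 4 fell. Among those that rose were the caspase genes Casp6 (1.18 ± 0.15) and Casp8 (0.93 ± 0.17) and the necroptosis kinase gene Ripk3 (1.6 ± 0.18). In the antioxidant list 13 of 24 rose and 3 fell, the peroxiredoxin gene Prdx4 from 37.4, 43.0 and 34.9 CPM to 204, 195 and 217 CPM (2.42 ± 0.20).

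The cytoskeleton and chromatin lists held more rises than falls. Of 43 cytoskeleton genes 22 rose (51.2%) and 9 fell (20.9%), against 23.4% and 21.7% of all genes tested. Of the tubulin and kinesin genes 11 of 14 rose. Vim, an intermediate filament gene, rose from 253, 208 and 178 CPM to 2314, 2116 and 2132 CPM (3.36 ± 0.28). The annexin gene Anxa2, of membrane repair and traffic, rose from 83.6, 54.8 and 61.3 CPM to 863, 755 and 849 CPM (3.63 ± 0.30). The actin crosslinker gene Actn1 fell from 112, 157 and 125 CPM to 20.8, 20.7 and 22.1 CPM (-2.63 ± 0.19). No groups overlapped for these 3. Of 62 chromatin genes 29 rose (46.8%) and 17 fell (27.4%). The methyltransferase gene Kmt2a fell from 277, 255 and 352 CPM to 83.4, 90.1 and 74.9 CPM (-1.83 ± 0.16), as did the acetyltransferase gene Kat2b (-1.82 ± 0.23) and the demethylase gene Kdm6a (-1.29 ± 0.18). The linker histone gene H1f0 (2.01 ± 0.20), the histone variant genes H2afx (1.88 ± 0.43) and H2afz (1.77 ± 0.19) and the polycomb enzyme gene Ezh2 (1.25 ± 0.20) rose. Of 18 RNA decay genes 6 rose and 8 fell, among them Zfp36l1, which destabilizes cytokine transcripts (-1.15 ± 0.28), on the falling side and Ybx3, an RNA-binding cold shock protein gene, on the rising side (81.4, 52.3 and 48.4 CPM to 313, 327 and 408 CPM, 2.53 ± 0.41).

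Noncoding transcripts changed by class. Of 18 noncoding host genes 8 rose and 4 fell. Hosts of small nucleolar RNAs were among those that rose, Zfas1 from 14.2, 12.8 and 16.6 CPM to 89.5, 66.2 and 75 CPM (2.40 ± 0.20) and Gas5 from 59.3, 58.7 and 84.2 CPM to 267, 234 and 221 CPM (1.84 ± 0.24). The nuclear-retained transcripts Malat1 (226, 446 and 638 CPM to 129, 101 and 78.0 CPM, -2.09 ± 0.37), Neat1 (-1.34 ± 0.29) and Kcnq1ot1 (-1.51 ± 0.32) fell. The unstimulated libraries differed for Malat1, with library 1 the lowest. By annotated class, antisense genes had 45 rises and 191 falls among 714 tested (median log2 fold change -1.06) and sense intronic genes 0 rises and 32 falls among 112 (-1.61). LincRNAs had 68 and 129 among 534 (-0.75), and protein-coding genes 3416 and 2804 among 12771 (0.03). No source used here gives the strand setting of the counting, and reads of antisense and intronic classes cannot be told apart from those of the genes they overlap. Processed pseudogenes had 311 rises and 78 falls among 1023 (0.60). Many are near-copies of expressed genes, and their counts may be split with the parent genes.

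Some of the steepest changes belonged to genes seldom named in T cell activation. Atp7b, a copper-exporting ATPase gene, had 0 counts in every unstimulated library and 6.16, 8.23 and 7.84 CPM after stimulation, at least 172-fold higher against a floor of 3 counts over the group. Emilin2, an extracellular matrix glycoprotein gene, was at 0.249, 0.283 and 0.0424 CPM and 74.1, 70.4 and 83.8 CPM. The endoribonuclease gene Endou was at 0, 0.0945 and 0 CPM and 25.1, 31.9 and 27.1 CPM. These were nearly silent in cells kept in IL-2 alone, as was the complement gene C3 (31.0, 20.5 and 19.5 CPM after stimulation). The surface glycoprotein gene Cd24a rose from 0.414, 0.378 and 0.466 CPM to 32.8, 39.4 and 35.5 CPM (6.40 ± 0.36). Among genes named for nerve and muscle 12 of 32 rose and 5 fell, the semaphorin gene Sema7a from 2.07, 0.0945 and 0.593 CPM to 37.3, 48.6 and 44.6 CPM (5.53 ± 0.57).

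On the falling side the steepest genes included several that varied between the unstimulated libraries. Zbtb16, which encodes the innate-like T cell factor PLZF, went from 36.3, 12.4 and 19.0 CPM to 1.83, 0.152 and 0.215 CPM (-4.99 ± 0.89). Il17rb, a receptor gene for interleukin 25, went from 15.9, 7.46 and 5.21 CPM to 0.175, 0.493 and 0 CPM (-5.40 ± 0.70). The sulfatase gene Sulf2 went from 55.7, 20.9 and 19.4 CPM to 0.698, 0.682 and 0.179 CPM (-5.95 ± 0.79). For each of them, as for Cxcr6 and Ifng, unstimulated library 1 was the highest. Of the NK and gamma delta markers 7 of the 10 tested fell too. Their summed levels given above overlapped between the groups, but the sums include Eomes, which rose. The part of such cells in these falls was not tested. The ADP-ribosyltransferase gene Art2b, a surface enzyme of resting T cells, varied little and fell from 131, 128 and 133 CPM to 7.07, 6.41 and 15.3 CPM (-3.76 ± 0.34). By the difference in CPM the largest losses included the interferon-inducible GTPase genes Gbp4, from 1017, 1182 and 1574 CPM to 147, 192 and 219.8 CPM (-2.76 ± 0.29), and Igtp, from 1986, 2316 and 2133 CPM to 675, 759.9 and 923 CPM (-1.45 ± 0.25).

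For 8 of the genes given above, picked after their values were seen, the changes in the other contrasts were of the same direction. In knockout-labelled cells the log2 fold change of Pcx was 4.51 ± 0.20, that of Nfil3 4.32 ± 0.19 and that of Eif4ebp1 4.40 ± 0.21, and in wild-type-labelled cells with niacin they were 4.98 ± 0.20, 4.68 ± 0.19 and 4.79 ± 0.22. Of the fallen genes Itga4 gave -4.40 ± 0.24 and -4.55 ± 0.24, Il6ra -3.83 ± 0.23 and -3.22 ± 0.23, and Cxcr6 -4.33 ± 0.46 and -5.91 ± 0.50, in the same order. The phosphorylase gene Pygl gave 8.10 ± 0.57 and 7.95 ± 0.53, and Fads2 9.62 ± 0.61 and 8.06 ± 0.53.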

How the data were processed

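RNA from cultured mouse CD4+ T cells was amplified by SMART-seq V4 before sequencing on a HiSeq 2500, per the labels' protocols. The submitters' processing notes name Trimmomatic 0.38, STAR 2.7.0e and featureCounts 1.6.3, and both GRCm38.p5 and mm10 as builds. No source used here gives the strand setting or the annotation release. The deposited table holds the authors' raw counts for 53379 gene IDs in 23 libraries, of which 53274 were matched to a symbol. The total counts of the 6 libraries compared ran from 20636274 to 30090018, which limits the precision for genes with few counts.

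Counts were fitted with edgeR 4.0.16 (R 4.3.3; TMM factors, filterByExpr with a minimum count of 10, quasi-likelihood test) as group means over all 23 libraries, with 15 residual degrees of freedom, and p-values were adjusted by Benjamini-Hochberg over all 16882 genes tested. CPM values use TMM-scaled library sizes, and TPM values divide by the annotated gene length. DESeq2 1.42.0, limma 3.58.1 with voom and quality weights, RLE factors, no filter, a replicate block, a fit on the compared groups alone and leaving out each of the 6 libraries (12 for the difference between the labels) were alternatives. The script was tested on simulated data with 200 changed genes, far fewer than were called here. That test does not cover changes as widespread as those reported. Promoters came from a RefSeq table of 32851 entries (GRCm38.p6) and matched 10888 tested genes by symbol. They were searched on both strands for 9 motifs, of which 4 are described. The other 5 and their shares among all tested genes were the E-box CACGTG (8.15%), the longer form TCACGTGA that contains it (1.55%), the E2F element TTTGGCGC (0.845%), the KLF and SP box GGGNGGGG (44.5%) and the sterol element TCACNCCAC (0.964%).

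Members, lists and named genes were chosen with earlier results of these data known. Named genes are the key genes of 63 lists, up to 4 per list and direction by fold with at least 5 CPM, and the 12 largest changes per direction by fold and by CPM. Outside that rule, Bcl3, Ccnb2, Cdc20, Cpt1a, Fabp5, Got1, Gys1, Hcar2, Il4ra, Mcm2, Mcm4, Nfkb1, Pgm2, Selplg, Tars and Ttk were named after their values were seen. Some genes that the rule names are not reported here.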

Additional observations from a re-analysis of the deposited data

Results flagged for a closer look

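The response of Nrn1, which encodes the surface-anchored protein neuritin, differed between the genotype labels by a test of the difference itself. It rose from 6.96, 6.0 and 7.33 CPM to 37.0, 40.6 and 36.4 CPM in wild-type-labelled cells (2.49 ± 0.18 on the log2 scale, higher in 3 of 3 stimulated libraries), against 0.77 ± 0.18 in knockout-labelled cells. The difference, wild-type label minus knockout label, was 1.72 ± 0.25 (edgeR adjusted p = 0.016). It was the only gene past the threshold in that edgeR fit. The call was lost when the compared groups were fitted alone (1.73 ± 0.29, edgeR adjusted p = 0.36). Leaving out 1 of the 12 libraries, chosen as an alternative after seeing the data, gave differences of 1.55 to 1.90. The call was kept in 5 cases and lost in 7, with edgeR adjusted p of up to 0.11. Those 7 were wild-type-labelled stimulated libraries 1 and 2 and unstimulated libraries 1 and 2, and knockout-labelled stimulated libraries 2 and 3 and unstimulated library 1. As the counts of Hcar2 go against the genotype labels, the direction of this difference cannot be tied to a genotype.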

How the results depend on the processing

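The counts of genes that rose and fell stayed within 1.5 times those reported under every alternative run. They were 3980 and 4231 with DESeq2, 3773 and 3918 with RLE factors, 4896 and 5104 with limma voom and quality weights, 3840 and 3808 with no filter on low counts (30367 genes tested), and 4263 and 4004 when the compared groups were fitted alone (14021 genes tested). Leaving out 1 library at a time gave 3219 to 3731 risen and 2866 to 3349 fallen genes, and 35 to 40 of the 63 lists with more rises than falls. With DESeq2, RLE factors and limma voom the risen genes were fewer than the fallen ones, the reverse of the main order. Same-numbered libraries did not deviate together (correlations of 0.037, 0.034 and -0.088), so the numbers were not taken as pairing. With the replicate block 3891 genes rose and 3562 fell, 36 lists had more rises than falls, and 1 gene differed between the labels.

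The count of genes whose response differed between the genotype labels moved the most. It was 6 with DESeq2, 457 with no filter on low counts and 0 when the compared groups were fitted alone, where 1084 genes had an unadjusted p below 0.05, and the cause was not tested. Leaving out 1 of the 12 libraries compared, an alternative chosen after seeing the data, gave 0 to 2 genes (1184 to 2985 at an unadjusted p below 0.05 by edgeR). Of the 183 named genes that were called, 182 stayed called under every alternative that tested them and 0 reversed. The exception, Tbx21, is given with its value in the report. Many named genes were chosen for the size of their change in these same counts. Their stability is thus no measure of the stability of calls at large. Of the 24 named genes that were not called, 8 were called under some alternative. Of 1512 list counts recomputed, 119 moved by over 1.5 times. Among them 47 reached at least 4 members under either setting, 30 of these when a library was left out. Genes with few counts are limited by depth.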
